A study of Homo sapiens with 12 samples.

Results

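PIGR and 7 further genes of mucosal defence (LCN2, SAA1, SAA2, DMBT1, PLA2G2A, REG4 and NOS2) were followed in HT29 cells treated with a water extract of Aconitum carmichaeli Debeaux (ACD), a medicinal herb of the monkshood genus. These 8 genes were taken by symbol from a table in which 29696 genes had at least 1 count after rounding. PIGR was selected on its own values, since it stood higher at the lower doses than at the high dose. Its values are therefore a description, given with no test. The other 7 genes were named as functional relatives, and the question was whether they had the same dose shape. They and the gene lists below were chosen with earlier results of these data known. Their p-values and counts are therefore not free of that choice.

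HT29 is a human colorectal adenocarcinoma line. The 12 libraries formed 4 groups of 3, and all were collected after 24 h. The vehicle was PBS with 2% DMSO, which was also the solvent of the extract stock. It was diluted in the growth medium, so the cells met less than 2% DMSO. The treated groups received ACD at a low (20 µg/mL), a medium (100 µg/mL) or a high (500 µg/mL) dose. Titles and treatment fields name ACD, although a protocol note of the libraries names an extract of Poria cocos instead. The labels do not say whether the 3 libraries of a group came from separate cultures, so p-values measure only the spread between these libraries. All 3 doses were compared with the same vehicle libraries.

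PIGR encodes the polymeric immunoglobulin receptor, which carries dimeric IgA and pentameric IgM across epithelial cells and is then cleaved to release secretory immunoglobulin. Intestinal epithelium also secretes proteins that act on microbes directly. They bind bacterial siderophores (lipocalin 2, from LCN2), aggregate bacteria (DMBT1) or hydrolyse bacterial membrane phospholipids (PLA2G2A). SAA1 and SAA2 are acute phase serum amyloid A proteins, REG4 is a lectin of the regenerating family, and NOS2 is the inducible nitric oxide synthase. Interferon gamma, TNF, interleukin 17 and microbial ligands are known to raise PIGR in intestinal cells, with interferon regulatory factors and NF-kB among the factors involved.

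The bases before the start sites of PIGR and LCN2 are shown because these genes had the highest fold change among the tested members and the highest level. The sequences are from RefSeq on GRCh38.p14, 5′ to 3′ on the strand of the gene. For PIGR the stretch is chr1:206946467-206946716 on the minus strand, with matches to the IRF core (AANNGAAA, searched on both strands) in capitals. For LCN2 it is chr9:128149265-128149440 on the plus strand, which leaves out bases that GENCODE places in an exon of LCN2, with the match to the NF-kB (kappa B) consensus in capitals.
PIGR: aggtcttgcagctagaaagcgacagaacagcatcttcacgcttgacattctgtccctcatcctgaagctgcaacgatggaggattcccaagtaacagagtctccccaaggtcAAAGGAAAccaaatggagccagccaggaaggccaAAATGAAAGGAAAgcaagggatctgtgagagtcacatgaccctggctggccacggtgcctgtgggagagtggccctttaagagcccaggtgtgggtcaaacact
LCN2: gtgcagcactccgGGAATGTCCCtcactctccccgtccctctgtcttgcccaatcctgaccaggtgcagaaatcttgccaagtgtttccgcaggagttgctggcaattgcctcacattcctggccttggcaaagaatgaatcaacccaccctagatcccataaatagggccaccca

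The 3 IRF core matches of PIGR began 138, 104 and 99 bases before the start, and the last of these overlapped its neighbour. Among 35116 promoters, 20.3% held this core in the same 250 bases and 10.0% held the kappa B consensus. PIGR held no match to kappa B, to the STAT palindrome (TTCNNNGAA), to the C/EBP core (TTNNGNAA) or to the E-box (CACGTG), which speaks only of these letters in this window. Its match to the AhR core (GCGTG), held by 32.2% of promoters, overlapped no other match. LCN2 held 1 kappa B and 1 C/EBP match, which did not overlap, and DMBT1 held 2 IRF core matches. No kappa B match lay before REG4, DMBT1 or PLA2G2A. The promoters of SAA1, SAA2 and NOS2 were not analysed here.

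Total expected counts per library ranged from 15941255 to 33866644. Mitochondrially encoded genes took 14.0 to 16.6% of the counts in the high-dose libraries and 7.41 to 11.0% in all others, a difference that moves with the high dose and whose part in the results was tested only through library sizes. High-dose library 2 was the shallowest and stood apart, with an SD of log2 differences from its group of 0.502 over 10626 genes, against 0.102 to 0.293 for the other 11 libraries. All 10 markers of intestinal epithelium were detected and passed the filter, at a summed 11364 to 13591 CPM (a library's counts scaled to a common total). Summed markers of leukocytes stayed between 2.44 and 4.62 CPM, those of fibroblasts and endothelium between 2.41 and 4.12 CPM, and those of hepatocytes between 0.142 and 0.618 CPM. Of 5 Paneth cell markers only LYZ passed the filter, and 2 were at 0 in every library. Goblet cell markers summed to 301 to 314 CPM in vehicle and 194 to 250 CPM at the high dose. In bulk RNA, fewer cells of a type and less RNA per cell cannot be told apart.

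PIGR measured 1.16, 0.879 and 1.01 CPM in the vehicle libraries. It measured 2.51, 2.75 and 3.04 CPM at the low dose and 2.89, 2.71 and 3.60 CPM at the medium dose. At the high dose it measured 1.44, 1.20 and 1.45 CPM. Every low-dose and medium-dose library lay above every vehicle and high-dose library, and the high-dose libraries all lay above the vehicle libraries. This separation is what the gene was chosen for, so no test is attached to it.

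The group means of PIGR were 1.02 ± 0.139 (SD, n = 3) CPM in vehicle, 2.77 ± 0.269 at the low, 3.07 ± 0.472 at the medium and 1.36 ± 0.138 at the high dose. The log2 fold change against vehicle was 1.46 (SE 0.18), 1.61 (SE 0.18) and 0.47 (SE 0.19) in the order of rising dose. The low and medium doses differed by a log2 value of 0.15 with a 95% interval of -0.19 to 0.49. The high dose stood 1.07 below the mean of the lower doses on the log2 scale (SE 0.15, interval of the difference -1.40 to -0.74). Without high-dose library 2 this difference was -1.01. PIGR is on chromosome 1 (206928522 to 206946466, minus strand, GRCh38) and overlaps neither of its neighbours FCMR and FCAMR.

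PIGR was thinly covered. Its summed counts were 73 in vehicle and 219, 234 and 96 in the treated groups, in the order of rising dose. Pooled over each group, the exact 95% Poisson interval was 0.774 to 1.24 CPM in vehicle and 2.39 to 3.13 CPM at the low dose. The medium dose had an interval of 2.67 to 3.46 CPM and the high dose 1.13 to 1.70 CPM. Such intervals cover counting error only and, for a gene chosen on these values, are a description of its depth.

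**Figure D1:**
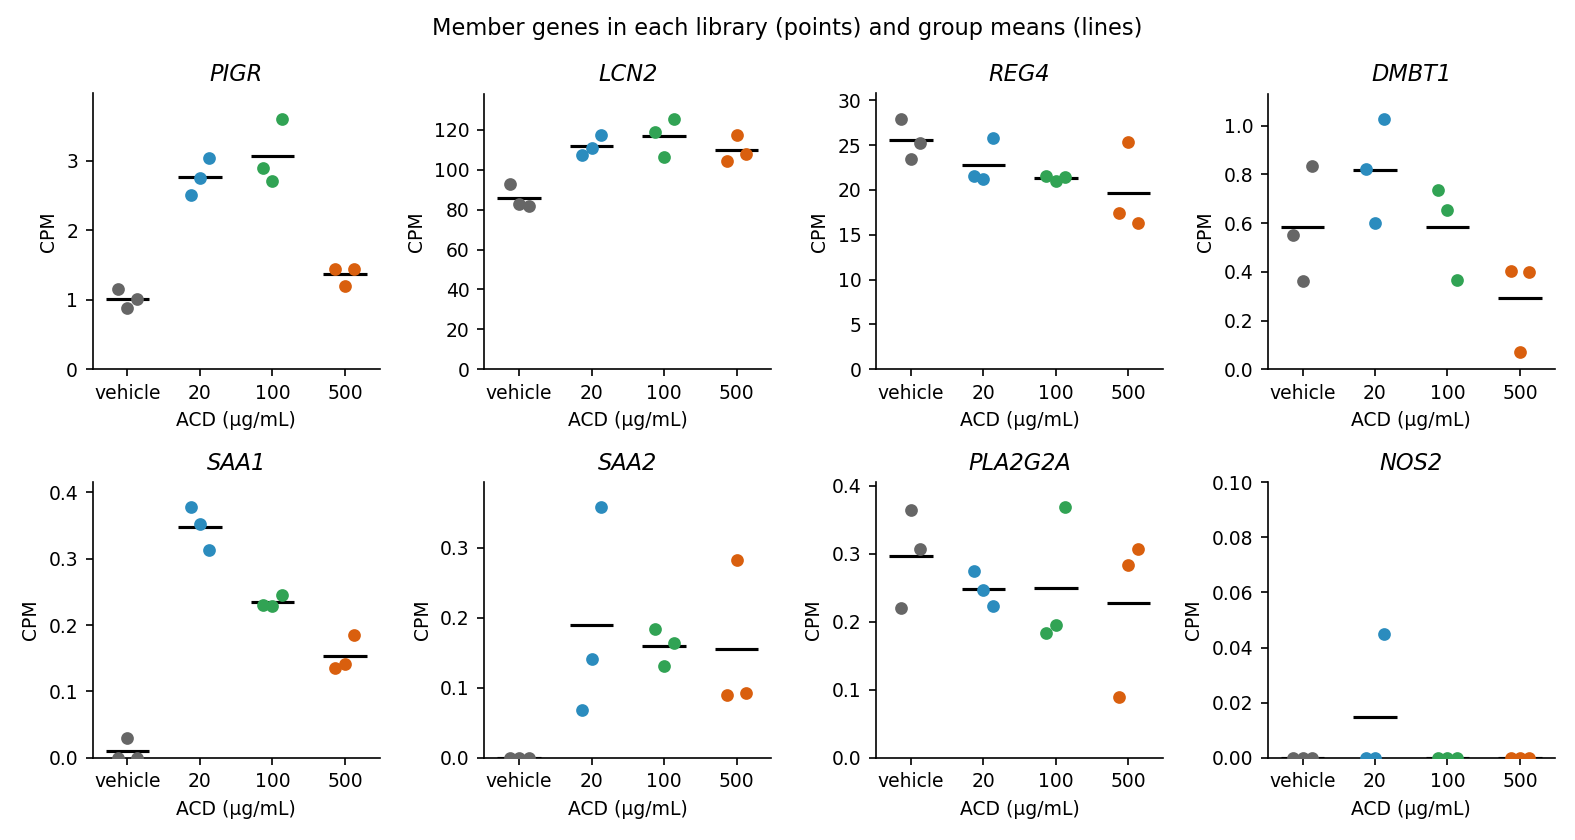
CPM of each of the 8 genes (vertical axes, each from 0 and on its own scale) in the vehicle libraries and at 20, 100 and 500 µg/mL ACD. Points are libraries and lines are group means (n = 3). PIGR is highest at 20 and 100 µg/mL, LCN2 is higher than vehicle in all 9 treated libraries, SAA1 and SAA2 are near 0 in vehicle, and within each group libraries 1, 2 and 3 are placed from left to right.

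Of the 8 genes, 4 passed the filter on low counts (PIGR, LCN2, DMBT1 and REG4) and were among the 15374 genes in the fit. SAA1, SAA2, PLA2G2A and NOS2 did not pass and are described by their counts. A gene was called when edgeR's quasi-likelihood test gave an adjusted p under 0.05 and the fold change was over 1.5. None of LCN2, DMBT1 and REG4 was called at any dose by edgeR or by DESeq2. With the low dose 0.065% of tested genes were called higher and 0.0455% lower, with the medium dose 0.384% higher and 0.293% lower, and with the high dose 1.26% higher and 1.68% lower. At an unadjusted p under 0.05, edgeR gave 1 of the 3 genes at the low, 1 at the medium and 2 at the high dose. The share of all tested genes at this unadjusted threshold was not computed. No result is therefore read from this count or from the later counts at that threshold.

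The difference between the high dose and the mean of the lower doses, the dose shape of PIGR, was also tested for these 3 genes. None was called, where 0.605% of tested genes were called higher and 0.676% lower, and 1 of 3 had an unadjusted p under 0.05. DESeq2 called none.

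LCN2 was higher than vehicle by a small and similar amount at all 3 doses. It measured 92.9, 82.8 and 82.0 CPM in vehicle and 107, 111 and 117 CPM in the low-dose libraries. It measured 119, 106 and 126 CPM with the medium dose and 104, 117 and 108 CPM with the high dose. Every treated library lay above every vehicle library, and the treated groups overlapped each other. The means were 85.9 ± 6.06, 112 ± 5.06, 117 ± 9.67 and 110 ± 6.65 CPM (SD, n = 3), from vehicle to the high dose.

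The log2 fold change of LCN2 was 0.38 (SE 0.08, edgeR adjusted p = 0.122), 0.44 (SE 0.08, adjusted p = 0.0243) and 0.35 (SE 0.08, adjusted p = 0.0264) in the order of rising dose. It thus passed the adjusted p alone at the 2 higher doses, as did 0.572% and 2.82% of tested genes in the higher direction, but never the fold of 1.5. In each of these comparisons it passed in 15 of 20 alternatives, and the highest adjusted p over the 20 was 0.148 at the medium and 0.186 at the high dose. It was lost in both without vehicle library 2 or 3, in the former also without medium-dose library 1 or 3, and in the latter also without high-dose library 3 and with edgeR on the libraries of that comparison alone. With the replicate number as a block it was lost in both (edgeR adjusted p = 0.0791 and 0.0626). At the low dose LCN2 passed the adjusted p in 4 of 20 alternatives, which were DESeq2 on all libraries (adjusted p = 0.00326), DESeq2 (0.000348) and edgeR (0.0291) on the libraries of the comparison, and edgeR without high-dose library 2 (0.00472). The level with the high dose differed from the lower doses by -0.06 (95% interval -0.21 to 0.10, edgeR adjusted p = 0.681), against -1.07 for PIGR. No fall of LCN2 at the high dose was detected beyond the spread of its libraries, and its interval ends well short of the PIGR difference. LCN2 lies on chromosome 9 (128149071 to 128153453, plus strand).

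REG4 had its highest mean in vehicle. It measured 28.0, 23.5 and 25.2 CPM in vehicle and 21.5, 21.2 and 25.7 CPM at the low dose. It measured 21.5, 21.0 and 21.5 CPM at the medium dose and 17.4, 25.3 and 16.3 CPM at the high dose. The medium-dose libraries all lay below vehicle, while at the high dose libraries 1 and 3 lay below all others and library 2 lay within the vehicle range.

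The log2 fold change of REG4 was -0.16 (SE 0.14, edgeR adjusted p = 0.826), -0.26 (SE 0.14, adjusted p = 0.535) and -0.39 (SE 0.15, adjusted p = 0.152) in the order of rising dose. High-dose library 2 decided the call at the high dose. Without it the log2 fold change was -0.59 with an edgeR adjusted p of 0.000289, and REG4 was called lower, as were 2.97% of the genes tested in that fit. Across all libraries the high dose differed from the lower doses by -0.18 (interval -0.46 to 0.10, edgeR adjusted p = 0.475), and without that library by -0.39 (adjusted p = 0.00876). REG4 lies on chromosome 1 (119794017 to 119811580, minus strand).

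DMBT1 had few counts, 41 over the vehicle, 64 over the low-dose, 45 over the medium-dose and 23 over the high-dose libraries. It measured 0.550, 0.364 and 0.835 CPM in vehicle and 0.824, 0.599 and 1.03 CPM at the low dose. It measured 0.735, 0.653 and 0.369 CPM at the medium dose and 0.405, 0.0708 and 0.400 CPM at the high dose. The low-dose and high-dose libraries did not overlap, whereas vehicle and medium overlapped with both.

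The log2 fold change of DMBT1 was 0.51 (SE 0.41, edgeR adjusted p = 0.809) at the low, 0.04 (SE 0.43, adjusted p = 0.985) at the medium and -0.79 (SE 0.48, adjusted p = 0.401) at the high dose. Its high dose stood at -1.07 against the lower doses, a size like that in PIGR, but with an SE of 0.41 and an interval of -1.97 to -0.17 (edgeR adjusted p = 0.231). High-dose library 2 held 1 DMBT1 count. Without that library the difference was -0.77 (edgeR adjusted p = 0.289). DMBT1 lies on chromosome 10 (122560665 to 122643736, plus strand).

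**Figure D2:**
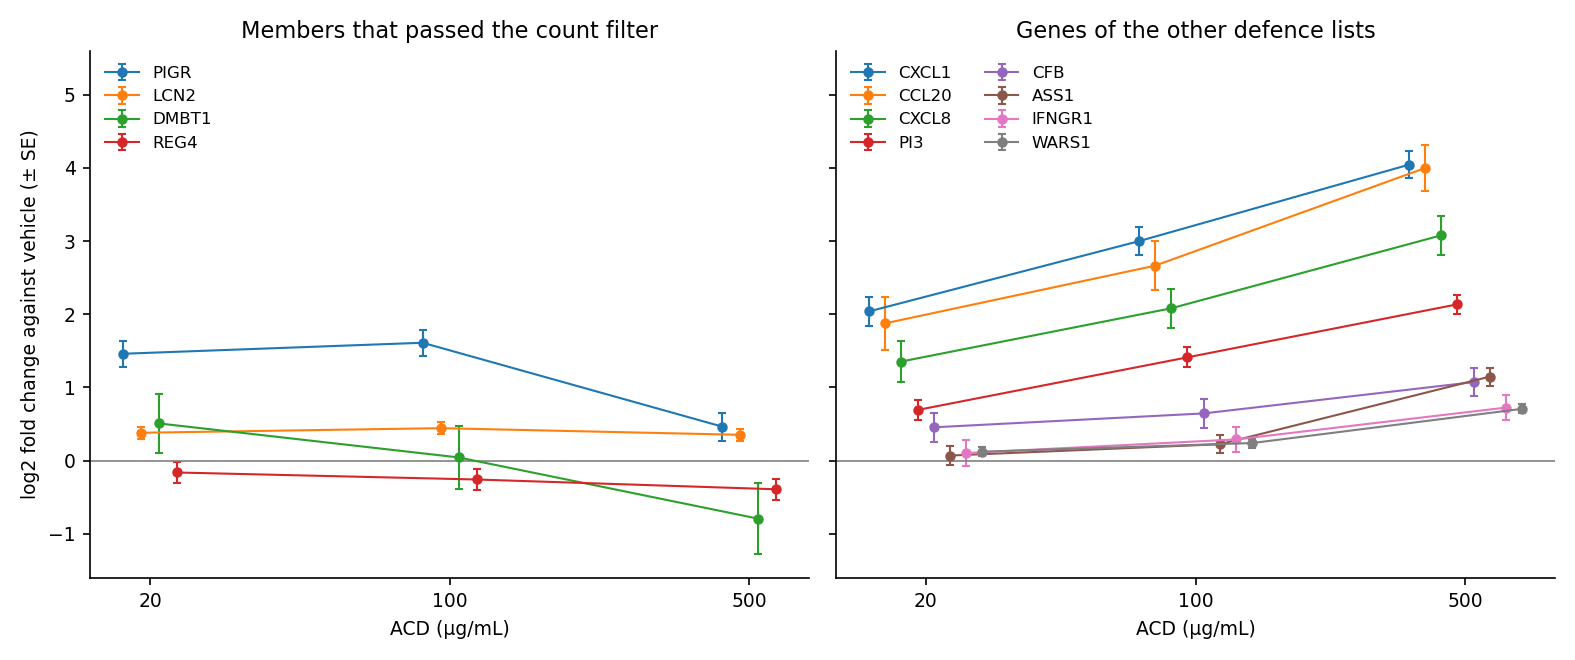
log2 fold change against vehicle (vertical axis, ± SE of the edgeR fit, 3 libraries a group) at 20, 100 and 500 µg/mL. The left panel holds the 4 tested members and the right panel 8 genes of the other defence lists. PIGR is lower at 500 than at 20 or 100 µg/mL, LCN2 stays between 0.35 and 0.44, and CXCL1, CCL20, CXCL8 and PI3 are highest at 500 µg/mL.

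SAA1 and SAA2 neighbour each other on chromosome 11, SAA1 at 18266260 to 18269977 on the plus strand and SAA2 at 18239223 to 18248668 on the minus strand. Their coding sequences in the MANE Select transcripts of GENCODE have 369 bases each and differ at 11 positions, an identity of 97.0%. Of 270 windows of 100 bases in the SAA1 coding sequence, 87 occur unchanged in SAA2, so the division of reads between them by the expectation step of RSEM is uncertain. The 150 coding bases that hold 10 of the differences are shown because reads over them can tell the genes apart, with differing bases in capitals. They are coding positions 174 to 323, read from GRCh38 across an intron, for SAA1 within chr11:18269277-18269809 on the plus strand and for SAA2 within chr11:18245423-18245966 on the minus strand.
SAA1: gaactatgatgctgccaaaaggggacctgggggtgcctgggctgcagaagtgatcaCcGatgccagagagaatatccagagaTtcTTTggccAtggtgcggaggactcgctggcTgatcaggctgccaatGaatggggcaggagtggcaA
SAA2: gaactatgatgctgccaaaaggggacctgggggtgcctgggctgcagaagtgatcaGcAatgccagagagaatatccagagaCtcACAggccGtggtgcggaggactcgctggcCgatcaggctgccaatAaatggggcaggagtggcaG

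SAA1 was almost undetected without ACD. It had 0, 1 and 0 counts in the vehicle libraries and 11, 10 and 7 at the low dose. The medium-dose libraries held 5, 7 and 6 counts and the high-dose libraries 3, 2 and 6. Each treated library had more SAA1 counts than each vehicle library, and the low dose was highest in CPM.

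In CPM, SAA1 measured 0.348 ± 0.0325 at the low, 0.235 ± 0.00963 at the medium and 0.154 ± 0.0268 at the high dose (SD, n = 3). The libraries of these 3 groups did not overlap. Their pooled exact 95% Poisson intervals did, at 0.233 to 0.507, 0.139 to 0.370 and 0.0797 to 0.286 CPM in the order of rising dose. The ratio of pooled levels to vehicle was 25.9 at the low dose (95% counting interval 4.29 to 1060), 17.3 with the medium (2.73 to 721) and 11.8 with the high dose (1.72 to 508), and the intervals are wide because vehicle held 1 count. When the filter was dropped, edgeR called SAA1 higher at the low dose (adjusted p = 0.012) and at the medium dose (adjusted p = 0.036), where 0.0673% and 0.219% of genes were called higher. At the high dose edgeR gave an adjusted p of 0.071. In the same unfiltered fit the high dose differed from the mean of the lower doses by -0.85 on the log2 scale. This was not called (95% interval -1.86 to 0.16, edgeR adjusted p = 0.625), so a PIGR-like fall of SAA1 was not established. The unfiltered adjusted p-values rest on counts too low for the filter.

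SAA2 had no count in any vehicle library, which allows up to 0.0406 CPM over the group at a floor of 3 counts. It had 2, 4 and 8 counts at the low dose, 4 in each medium-dose library and 2, 4 and 3 at the high dose. Every treated library had SAA2 counts, and the treated groups overlapped each other. The ratio of pooled levels to vehicle has no upper limit, and its lower 95% counting limit was 3.07, 2.67 and 2.12 in the order of rising dose. Of the 14 low-dose counts, 8 came from library 3. Without the filter its edgeR adjusted p was 0.175, 0.117 and 0.0725 in the order of rising dose, so it was not called. The readthrough gene SAA2-SAA4 overlaps SAA2, and the strand setting of the counting was not given in the sources used here.

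PLA2G2A was detected in every library at a low level. It had 4, 12 and 7 counts in vehicle and 8, 7 and 5 at the low dose. The medium-dose libraries held 4, 6 and 9 counts and the high-dose libraries 2, 4 and 10. The 4 groups overlapped, with means of 0.297 ± 0.0723, 0.248 ± 0.0255, 0.249 ± 0.103 and 0.227 ± 0.119 CPM (SD, n = 3) from vehicle to the high dose. NOS2 had 1 count in all 12 libraries, in low-dose library 3. Its absence from the other groups allows up to 0.0406 CPM in vehicle, 0.0390 CPM at the medium and 0.0436 CPM at the high dose. No dose difference of NOS2 was detectable at this depth.

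The order of group means was then compared with that of PIGR, namely low and medium above vehicle and high below both. LCN2, SAA1, SAA2 and DMBT1 had this order, while PLA2G2A, REG4 and NOS2 did not. These were 4 of the 7 other genes, with or without high-dose library 2, against 20.8% of tested genes. SAA1 and SAA2 are outside the genes tested, and their counts and those of DMBT1 are low. Reads can be shared between SAA1 and SAA2, so these are not independent genes here. Several orders rest on small differences. The mean log2 CPM of DMBT1 was -0.655 in vehicle and -0.633 at the medium dose. That of SAA2 was -2.07 at the medium and -2.18 at the high dose. LCN2 differed by -0.06 between the high and the lower doses. The count therefore does not establish a shared shape. Without low-dose library 3 the count fell to 2 of 7.

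A stricter form of this shape was set after the values were seen, with low and medium means over 1.5-fold above both vehicle and the high dose. It held for 17 of 15374 tested genes, of which 3 had a mean of at least 1 CPM. PIGR is among the 17 by its selection, so this gives no support to its shape. None of LCN2, DMBT1 and REG4 was among them. IFITM1 and EPSTI1, known as interferon-induced genes, were among the 17 and are named after their values were seen. Both had low means over the 12 libraries, 0.92 and 0.70 CPM. They were picked from a mixed set that also holds ASB14, GRIN2B, PHACTR3, TRIM17 and pseudogenes, and an interferon theme was not tested. The log2 fold changes were 0.97, 1.22 and 0.04 for IFITM1 and 0.79, 0.70 and -0.55 for EPSTI1, in the order of rising dose.

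Likeness to PIGR was measured as the root mean square difference in log2 fold change over the 3 doses, among genes with a mean of at least 1 CPM. The 5 most like PIGR were SNORD3B-2 (0.46), ENSG00000256500 (0.47), BIVM-ERCC5 (0.48), NSFP1 (0.51) and LMNTD2-AS1 (0.54). They include a small nucleolar RNA, a readthrough gene, a pseudogene and an antisense RNA, whose reads can be shared with other genes. In the same measure over all tested genes LCN2 ranked 344, DMBT1 7158 and REG4 13260 of 15373. None of them was among the 5 named genes, and LCN2 was by far the nearest of the 3.

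**Figure D3:**
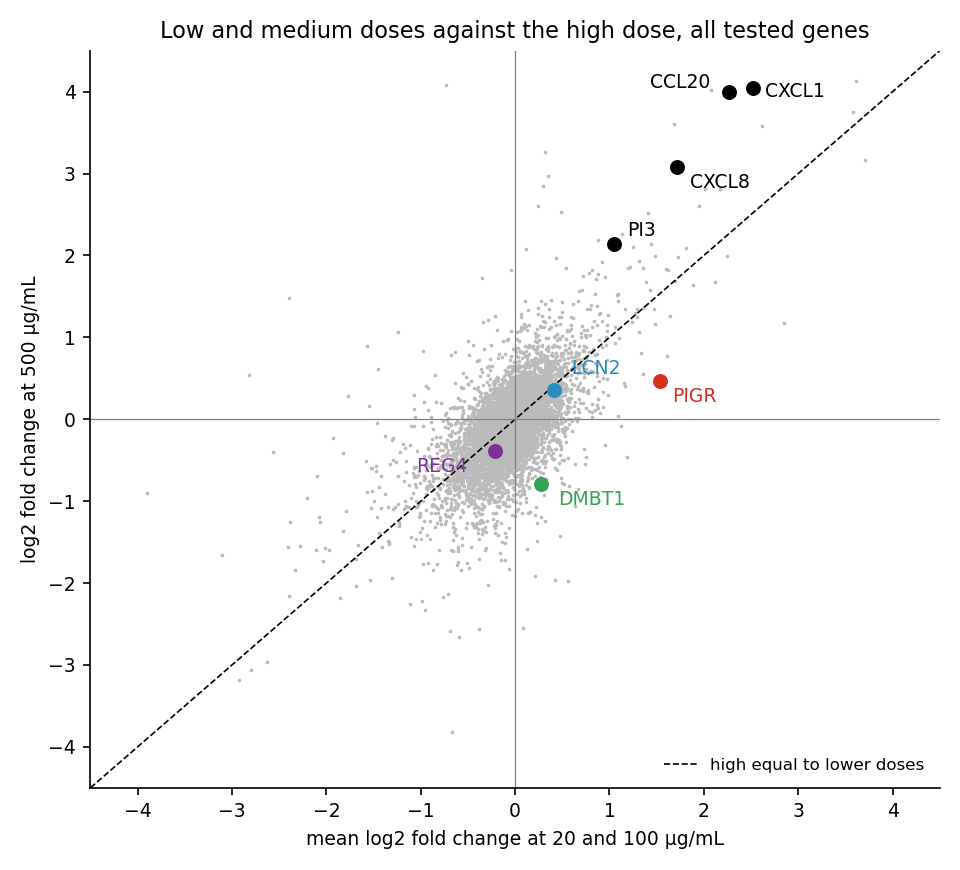
Mean log2 fold change against vehicle at 20 and 100 µg/mL (horizontal axis) and log2 fold change at 500 µg/mL (vertical axis) for the tested genes (grey; 14 lie outside the axes), with the dashed line marking equality. PIGR and DMBT1 lie below the line, LCN2 and REG4 lie near it, and CXCL1, CCL20, CXCL8 and PI3 lie above it.

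Per kilobase of exon, LCN2 was the most abundant of the 8 genes in vehicle at 53.8 CPM per kb, before REG4 at 7.48, PIGR at 0.232, PLA2G2A at 0.182 and DMBT1 at 0.0622 CPM per kb. At the medium dose PIGR reached 0.702 CPM per kb and LCN2 73.2 CPM per kb. PIGR was thus a low-level transcript in HT29 also at the doses where it was highest.

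The machinery that moves immunoglobulin through the cell was followed through a short list. Of 10 listed genes for immunoglobulin transport, 8 were tested, and neither edgeR nor DESeq2 called any at any dose. Over all tested genes edgeR called 0.065%, 0.384% and 1.26% higher and 0.0455%, 0.293% and 1.68% lower, in the order of rising dose. With 8 genes, no call is near these shares and is not a result about this machinery. The same limit holds for the other lists that had no call at a dose. At an unadjusted p under 0.05 edgeR gave 0, 1 and 2 of the 8 in the order of rising dose. The list's median log2 fold change was -0.04, -0.08 and -0.04 in the order of rising dose, against medians of all tested genes between -0.01 and 0.01. The most abundant were TFRC, the transferrin receptor, and RAB11A, a GTPase of recycling endosomes. TFRC measured 665 ± 68.4 CPM in vehicle and 761 ± 17.2 CPM at the high dose, and RAB11A measured 298 ± 4.53 and 308 ± 49.0 CPM (SD, n = 3).

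Among 23 receptors and factors known to induce PIGR, 22 were tested. None was called at the low or medium dose by edgeR or DESeq2 (4 and 5 at an unadjusted p under 0.05). IFNGR1, the ligand-binding chain of the interferon gamma receptor, was called higher at the high dose, where PIGR was lowest among the treated groups. IFNGR1 measured 60.1 ± 1.23 CPM in vehicle and 99.8 ± 35.3 CPM at the high dose (log2 fold change 0.73, edgeR adjusted p = 0.0313). High-dose library 2 was at 141 CPM, and without it the log2 fold change was 0.40, below the fold threshold. The IFNGR1 call was lost in 11 of 21 alternatives. The list's median was 0.06, 0.10 and 0.06 in the order of rising dose.

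Of 15 interferon gamma responsive genes, 11 were tested and none was called at the low or medium dose by edgeR or DESeq2 (3 and 2 at an unadjusted p under 0.05). WARS1, the tryptophanyl-tRNA synthetase, was called at the high dose, from 87.6 ± 0.547 to 143 ± 3.27 CPM (log2 fold change 0.71, edgeR adjusted p = 3.59e-05). Of 11 IL-22 and STAT3 genes, 9 were tested and neither tool called any (3, 3 and 1 at an unadjusted p under 0.05 in edgeR, in the order of rising dose), with medians of 0.11, 0.15 and 0.01. STAT3 measured 101 ± 1.47 CPM in vehicle and 83.5 ± 15.0 CPM at the high dose, and IL6ST, a signalling receptor chain of the IL-6 family, 84.2 ± 7.95 and 96.7 ± 11.7 CPM (SD, n = 3).

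Among IL-17 and NF-kB responsive genes the most calls came at the high dose, as they did over all tested genes. Of all tested genes, 0.065%, 0.384% and 1.26% were called higher in the order of rising dose. Of 16 listed genes 12 were tested, and 1 was called higher at the low, 6 at the medium and 8 at the high dose, with none lower. IL17C passed the filter through its high-dose libraries alone (mean 0.0678 CPM in vehicle and 0.843 CPM at the high dose). CXCL2 (0.312 CPM in vehicle) and CCL20 (0.356 CPM in vehicle) passed it through treated libraries. The part of these genes in the counts is not free of that selection. DESeq2 called 3 at the low dose, CXCL1, CCL20 and CXCL8, and at the medium and high doses 6 and 8 of the list. Over the tested genes of the list the median log2 fold change was 0.68, 1.14 and 1.68 in the order of rising dose. CXCL1, a chemokine for neutrophils, measured 1.64 ± 0.293 CPM in vehicle and 6.64 ± 0.249, 12.9 ± 0.85 and 26.8 ± 6.72 CPM (SD, n = 3) in the order of rising dose. The chemokines CCL20 and CXCL8 were called by edgeR at the medium and the high dose, with log2 fold changes at the high dose of 4.00 (SE 0.32, edgeR adjusted p = 1.82e-05) and 3.08 (SE 0.27, adjusted p = 3.59e-05). For 7 of the 12 (6 with DESeq2) the high dose was called higher than the mean of the lower doses, the opposite direction to PIGR. Over all tested genes this share was 0.605% with edgeR.

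The remaining secreted defence proteins changed through few members. Of 30 secreted antimicrobial proteins 10 were tested, and PI3 (elafin, a protease inhibitor of epithelia) was the only one called, at 3.79 ± 0.676 CPM in vehicle and 6.04 ± 0.453, 9.94 ± 0.608 and 16.5 ± 2.03 CPM (SD, n = 3) in the order of rising dose. Its change was called at the medium dose (log2 fold change 1.41, edgeR adjusted p = 0.000218) and at the high dose (2.14, adjusted p = 1.94e-06). At the low dose its log2 fold change of 0.69 was not called by edgeR (adjusted p = 0.0985) and was called by DESeq2 (adjusted p = 0.00396). Lysozyme (LYZ) was the most abundant and was not called, at 1712 ± 102 CPM in vehicle and 1518 ± 327 CPM at the high dose. The median of this list was -0.18, -0.13 and -0.16.

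Of 18 acute phase proteins, the class of SAA1 and SAA2, 6 were tested. C3, the central complement component, had 1 count in the 3 vehicle libraries and 14 to 63 counts in each treated library. Its level was 0.684 ± 0.178, 1.46 ± 0.41 and 1.78 ± 0.315 CPM (SD, n = 3) in the order of rising dose, and edgeR called it at all 3 doses (adjusted p = 0.00799, 0.000218 and 3.96e-05). C3 passed the filter on low counts through its treated libraries alone, so these p-values are not free of that selection. The edgeR call at the low dose was lost without vehicle library 2 (adjusted p = 0.107) and without vehicle library 3 (adjusted p = 0.0646). C3 was thus absent or nearly so in vehicle, as was SAA1, but was highest at the high dose where SAA1 was highest at the low dose. Complement factor B (CFB) was called at the high dose, from 2.37 ± 0.491 to 4.98 ± 1.16 CPM (log2 fold change 1.07, edgeR adjusted p = 0.00622), a call lost with edgeR on the libraries of that comparison alone (adjusted p = 0.0926).

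Of 11 enzymes of arginine and nitric oxide metabolism, the setting of NOS2, 9 were tested. Neither tool called any at the lower doses, with 0 at an unadjusted p under 0.05 in edgeR. ASS1, argininosuccinate synthase, was called higher at the high dose only, from 14.1 ± 1.24 to 31.3 ± 4.08 CPM (SD, n = 3; log2 fold change 1.15, edgeR adjusted p = 0.000162), and higher there than at the lower doses. The medians of the acute phase list were 0.07, 0.01 and 0.88 and those of the arginine list -0.07, -0.02 and 0.17. TFF3, the trefoil peptide of goblet cells, was called lower at the high dose, from 9.03 ± 1.57 to 5.71 ± 1.08 CPM (log2 fold change -0.67, edgeR adjusted p = 0.0387), a call lost in 13 of 21 alternatives. IFNGR1, WARS1, CFB and ASS1 were named for a call at the high dose, so a highest mean at 500 µg/mL follows from that choice. PI3 and C3, called at lower doses too, also had their highest mean there. Of all tested genes, 32.3% had their highest mean at the high dose.

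**Figure D4:**
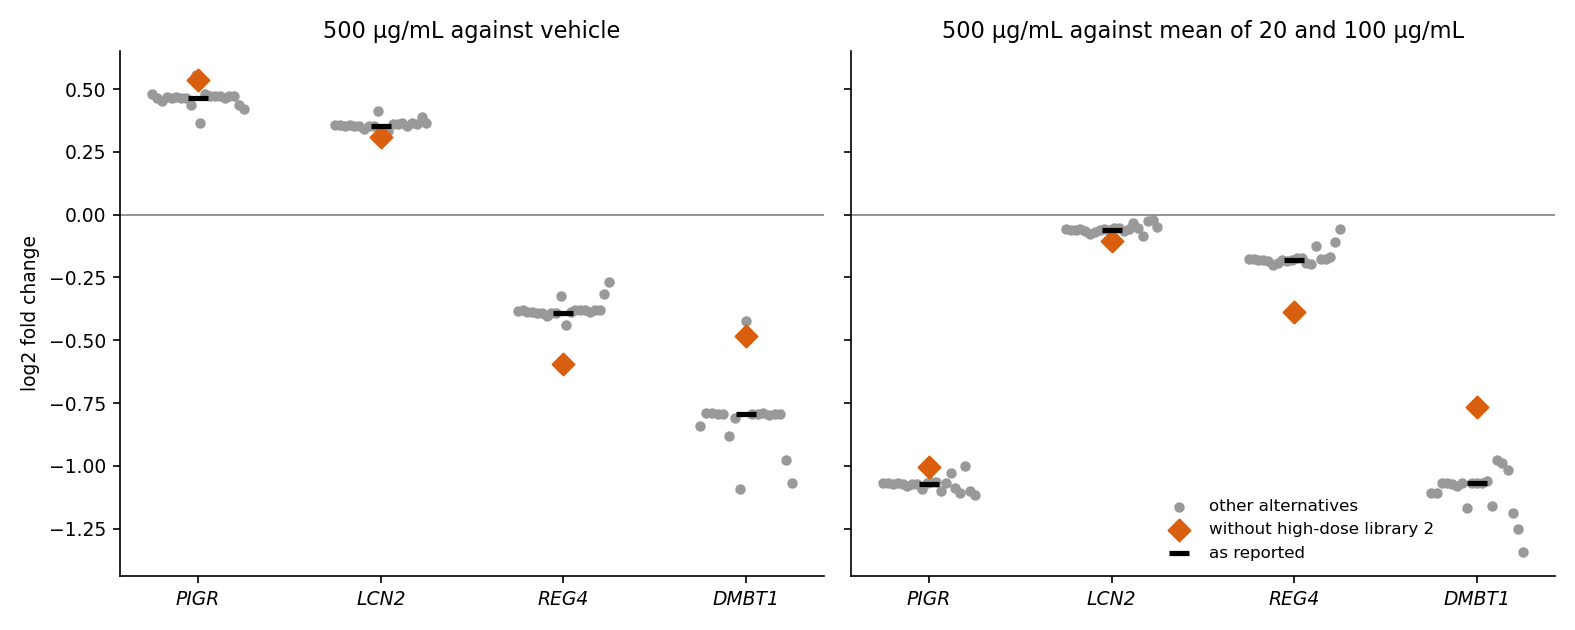
log2 fold change of the 4 tested members (horizontal axis) at 500 µg/mL against vehicle (left) and against the mean of the lower doses (right). Bars are the values as reported, diamonds the values without high-dose library 2, and grey points the other alternative settings. PIGR stays between -1.12 and -1.0 in the right panel, and REG4 moves from -0.39 to -0.59 in the left panel without that library.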

How the data were processed

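RNA from HT29 cells was sequenced in 12 libraries. The authors deposited RSEM expected counts per Ensembl gene, not normalized, made after FastQC, Trim Galore, STAR and RSEM. The submitters' processing notes give FastQC 0.11.9, Trim Galore 0.6.5, STAR 2.7.3a and RSEM 1.3.3 with GRCh38. The strand setting is not given in the sources used here. Of 60675 gene IDs, 93.2% were named from GENCODE, and all 8 members matched 1 ID each.

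Expected counts were rounded to whole numbers and fitted in edgeR 4.0.16 (R 4.3.3) over all libraries together, with filterByExpr, TMM scaling and the robust quasi-likelihood test. P-values were adjusted over all genes tested by the Benjamini-Hochberg method, and genes were called at an adjusted p below 0.05 with more than 1.5-fold change. CPM used TMM library sizes. The fit was tested on simulated data. Alternatives were DESeq2 1.42.0 on all libraries or on those of the comparison, edgeR on the libraries of the comparison, other scalings, filters and thresholds, a replicate block and leaving out each library. Figures were drawn with Matplotlib 3.10.9.

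The members and gene lists were chosen with earlier results of these data known. From each list, up to 3 called genes with the smallest p were named, or the 2 most abundant where none was called. Libraries sharing a replicate number did not deviate together (correlations -0.495 to 0.372 over 18 pairs), and no libraries were duplicates. Libraries held 15941255 to 33866644 counts, so 1 count is below 0.1 CPM.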

Additional observations from a re-analysis of the deposited data

Results flagged for a closer look

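DMBT1 had fold changes of opposite sign at the ends of the dose range, but neither was called (edgeR adjusted p = 0.809 and 0.401). Its log2 fold change was 0.51 at the low dose, where all 3 libraries lay above the vehicle mean, and -0.79 at the high dose, where all 3 lay below it. The difference between these doses was -1.30 (SE 0.45, edgeR adjusted p = 0.177), which did not pass the adjusted threshold.

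For some genes of the defence lists the change at the high dose differed from the mean change at the lower doses in edgeR's test of the difference. The high dose was higher by a log2 value of 1.52 for CXCL1 (adjusted p = 4.87e-05), 1.73 for CCL20 (adjusted p = 0.000531) and 1.36 for CXCL8 (adjusted p = 0.00247). It was higher by 1.08 for PI3 (edgeR adjusted p = 0.000143) and by 1.00 for ASS1 (edgeR adjusted p = 0.000212). In the other direction, that of PIGR, 1 of 5 tested goblet cell markers was called lower in the same test. Of all tested genes, 0.605% were called higher and 0.676% lower in it.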

How the results depend on the processing

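PIGR kept its direction and its size within the spread between libraries in all 21 alternatives, with log2 fold changes of 1.35 to 1.55, 1.49 to 1.70 and 0.36 to 0.56 against vehicle in the order of rising dose. The other members called were 0 except for 1 member (SAA1) at the low and the medium dose with no filter, 1 (LCN2) at the medium and the high dose with no minimum fold change, and 1 (REG4) at the high dose without high-dose library 2 (range 0 to 1 over the libraries left out). The members with the PIGR order of group means ranged from 2 to 5 over the libraries left out, and 2 was the value without low-dose library 3.

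Genes called at the low dose numbered 17, against 62 with DESeq2 on all libraries, 76 with DESeq2 and 51 with edgeR on the libraries of the comparison, 34 with no filter and 10 to 109 over the libraries left out. At the medium dose they numbered 104, against 169 with DESeq2 and 191 with edgeR on the libraries of the comparison and 52 to 249. At the high dose they numbered 451, against 172 with edgeR on the libraries of the comparison, 887 with no minimum fold change and 310 to 768. The high dose against the mean of the lower doses gave 197, and 441 with no minimum fold change. The highest of each leave-one-out range came without high-dose library 2. The fold change of DMBT1 at the medium dose turned in 3 of these fits and ranged from -0.25 to 0.42. The causes were not tested.

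With the replicate number as a replicate block, 17, 75 and 379 genes were called in the order of rising dose, 157 for the high dose against the lower doses, and 0 members in any comparison. Depth limits SAA1, SAA2, PLA2G2A, NOS2 and DMBT1 most.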
